A study of Mus musculus with 18 samples.

Results

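Etoposide treatment was compared with differentiation in C2C12 cells that carried KK-TAF3 and were depleted of PIP4K2B, on all 6 arrays of that genotype among the 18 arrays of the series. In these cells the endogenous TAF3 had been depleted and replaced by murine KK-TAF3, a mutant that does not bind phosphoinositides, and PIP4K2B had then been depleted with an shRNA. The 3 etoposide arrays held RNA of cells exposed to 10 µM etoposide for 7 hours. The 3 differentiated arrays held RNA of cells switched to medium with 2% horse serum, for 2 days according to the array titles, whereas the series description gives a longer time. Before either treatment the cells were grown in medium with 10% fetal calf serum. The arrays were chosen by their titles alone, and no array holds KK-TAF3 cells that received neither treatment. Drug, medium and time therefore differed together and cannot be told apart, and higher or lower means etoposide relative to differentiation throughout. The same comparison in WT-TAF3 cells, with PIP4K2B depleted (6 arrays) or not depleted (6 arrays), was used only to show where KK-TAF3 cells differed. According to the paper the WT-TAF3 cells were likewise depleted of endogenous TAF3 and given murine wild-type TAF3.

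C2C12 is a line of mouse myoblasts that stops dividing and fuses into myotubes once serum is reduced, a programme led by transcription factors such as MYOD and myogenin. Etoposide traps topoisomerase II on DNA, so that strands break and p53 is stabilised. p53 then activates genes for cell cycle arrest, DNA repair, metabolism and cell death, including its own inhibitor Mdm2. TAF3 is a subunit of TFIID, the complex that starts transcription by RNA polymerase II, and its PHD finger reads trimethylated lysine on histone H3. PIP4K2B is a kinase that converts nuclear phosphatidylinositol 5-phosphate, a lipid reported to rise under stress.

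Each array gave a log2 signal for 19938 genes, and a change is the mean of the 3 etoposide arrays minus the mean of the 3 differentiated arrays on that scale. A gene was counted as changed at a limma adjusted p under 0.05 (Benjamini-Hochberg, over all genes) together with a change above 1.4-fold. Arrays of a group correlated with r between 0.9904 and 0.9947 after etoposide and between 0.9946 and 0.9949 after differentiation, and the median SD of a gene was 0.112 after etoposide and 0.0694 after differentiation. The third etoposide array stood apart for long genes: 20% of genes of 59508 bases or more lay over 1.4-fold below the differentiated mean on it, against 8.81 and 8.86% on the other etoposide arrays. The array medians lay between 7.32 and 7.40 after etoposide and between 7.27 and 7.35 after differentiation. Pip4k2b, the target of the shRNA, had signals of 10.02, 10.10 and 9.69 after etoposide and of 9.90, 9.83 and 9.84 after differentiation, and the groups overlapped (change 0.08, adjusted p = 0.624). Its means in WT-TAF3 cells without depletion were 10.65 after etoposide and 10.69 after differentiation. Taf3 had 8.75, 8.70 and 8.63 after etoposide and 8.59, 8.63 and 8.58 after differentiation (change 0.10, adjusted p = 0.324). Its probes may read the introduced transcript as well as the endogenous one.

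The label of differentiation was set against markers of muscle. On the differentiated KK-TAF3 arrays myogenin (Myog) had signals of 7.02, 6.82 and 6.94 and embryonic myosin Myh3 had 6.38, 6.25 and 6.43, all below the median of the whole array. After etoposide Myog had 6.72, 6.88 and 6.71 and Myh3 had 6.30, 6.22 and 6.22. Neither change passed the threshold (limma: -0.16, adjusted p = 0.238 for Myog, and -0.11, adjusted p = 0.419 for Myh3). Skeletal actin Acta1 had 9.55, 9.45 and 9.82 after etoposide and 9.70, 9.72 and 9.89 after differentiation. Muscle creatine kinase Ckm had 7.98, 7.81 and 7.88 after etoposide and 7.97, 7.80 and 8.04 after differentiation. For both genes the arrays of the groups overlapped, so Myog, Myh3, Acta1 and Ckm did not separate the 2 conditions in KK-TAF3 cells. The remaining myotube marker chosen, the troponin Tnnt3, did separate them and was lower after etoposide. Some other muscle genes, among them Trdn and Myom2, were lower as well, with values given below.

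In KK-TAF3 cells 702 genes (3.52% of those tested) were higher and 959 (4.81%) lower after etoposide. Of these 1661 genes 42.3% were higher. The split depended on the scaling: with each array centred on its median it was 504 higher and 1224 lower (29.2% higher), and with the array median as a covariate it was 727 higher and 663 lower (52.3% higher). The median change over all genes was 0.03. All 3 etoposide arrays lay above all 3 differentiated arrays for 698 of the 702 higher genes and below them for 959 of the 959 lower genes. Among all genes 21.4% and 19% separated in those directions. The calls were made on these same arrays, so the separation of called genes is no further support for them. More than 2-fold changes numbered 95 upwards and 183 downwards, and more than 4-fold changes 5 upwards and 15 downwards.

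The gene with the largest rise was Anxa8, which encodes a phospholipid-binding annexin. Its signals were 11.20, 11.29 and 11.23 after etoposide against 8.39, 8.42 and 8.30 after differentiation, a change of 2.87 (SE 0.06, 7.32-fold, adjusted p = 3.31e-16). Id2 and Id3, which encode inhibitors of the helix-loop-helix factors that drive myogenesis, were also among the 20 largest rises. Id2 had 11.41, 11.55 and 11.80 after etoposide against 9.34, 9.27 and 9.36 after differentiation (change 2.27, SE 0.11, adjusted p = 2.19e-11). Id3 had 9.45, 9.53 and 9.77 after etoposide against 8.04, 7.86 and 7.80 after differentiation (change 1.68). The arrays of the groups were far apart for all 3 genes, as the 20 largest changes were taken among genes with separate arrays. Stmn2, a tubulin-binding stathmin, had 12.33, 12.36 and 12.53 after etoposide against 10.35, 10.35 and 10.12 after differentiation (change 2.13). Other genes among the 20 largest rises were Car8 (1.90), the galectin Lgals2 (1.89), the neuronal pentraxin Nptx1 (1.85), the plasminogen activator inhibitor Serpinb2 (1.85), Fxyd5 (1.83), Ddias (1.66), the metalloprotease Adam8 (1.63), the ubiquitin ligase Rnf128 (1.61), the thiamine transporter Slc19a2 (1.59) and the cytokine signalling inhibitor Socs2 (1.5).

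The 3 largest falls were in genes of secreted proteins. C1s1, the complement protease C1s, had signals of 6.99, 7.45 and 7.35 after etoposide against 10.57, 10.70 and 10.62 after differentiation (change -3.37, SE 0.14, adjusted p = 4.29e-12). Serpina6, which encodes the carrier of corticosteroids, had 6.04, 6.25 and 6.08 after etoposide against 9.26, 9.37 and 9.34 after differentiation (change -3.20). Adamts1, a protease that cleaves proteoglycans, had 9.86, 9.83 and 9.45 after etoposide against 12.61, 12.60 and 12.51 after differentiation (change -2.86). For these 3 genes, also taken among genes with separate arrays, every etoposide array lay far below every differentiated array. Dhrs3, an enzyme of retinoid metabolism, changed by -2.86, carboxypeptidase Cpa1 by -2.79, the heparan sulfate sulfotransferase Ndst4 by -2.48, the imprinted gene Mest by -2.42 and the transcription factor Osr2 by -2.39. Thyroglobulin (Tg, -2.14), the aggrecanase Adamts5 (-2.14), the ferritin receptor Scara5 (-2.12), Akr1c14 (-2.11), pleiotrophin (Ptn, -1.99), Daam2 (-1.97), Klk1b22 (-1.96) and the inflammatory caspase Casp4 (-1.95) were also among the 20 largest falls.

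**Figure D1:**
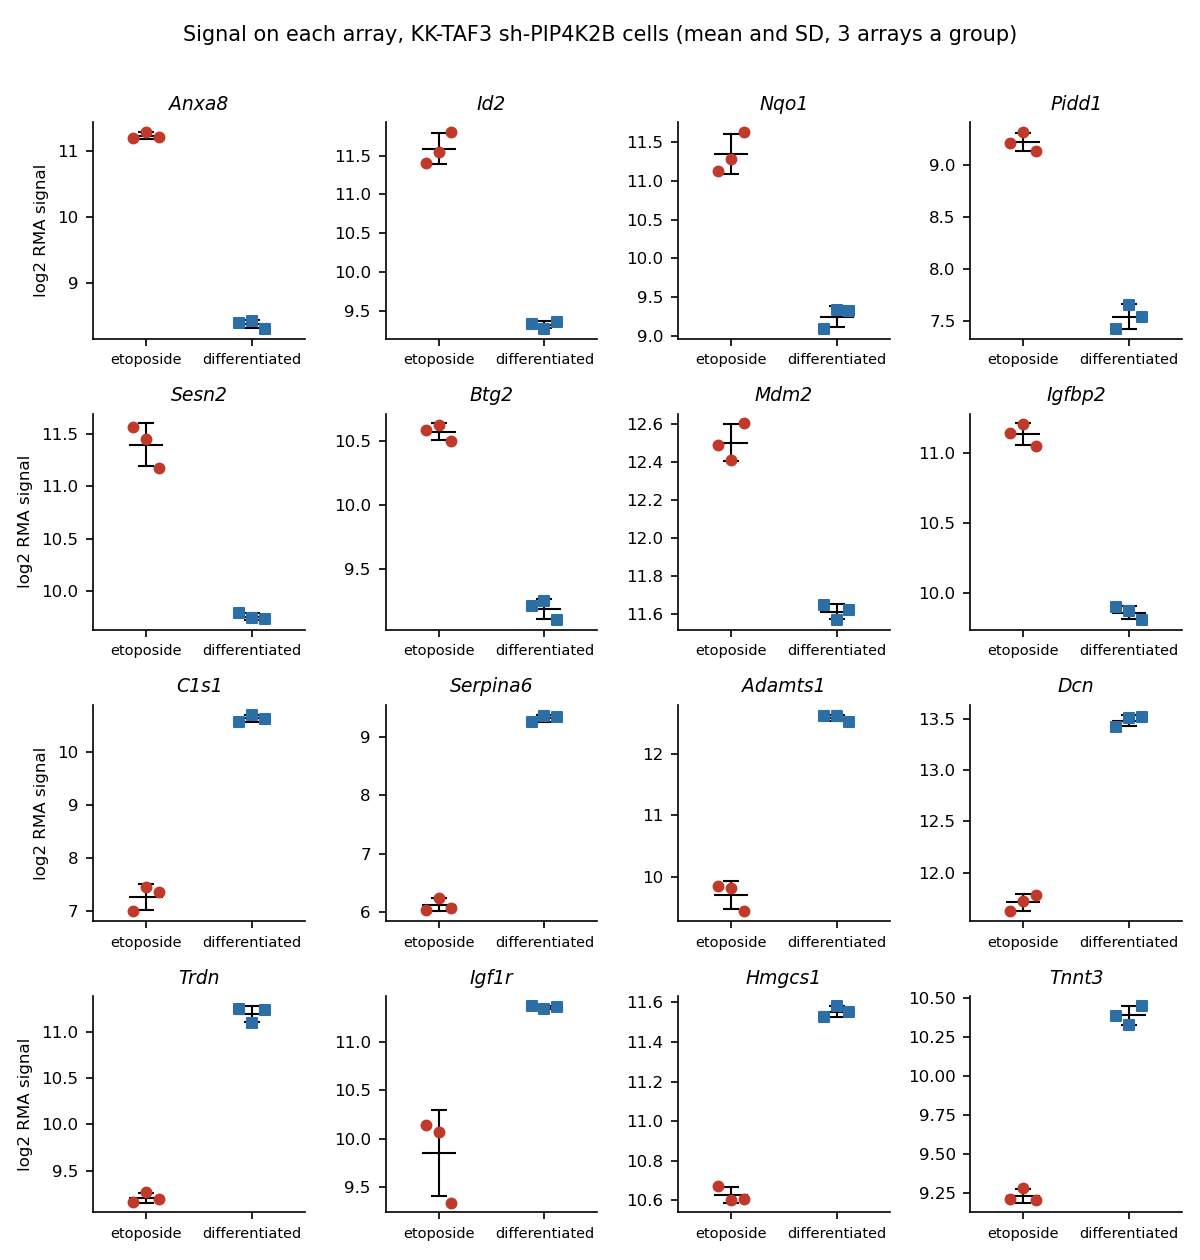
Log2 signal of 16 genes on each array of KK-TAF3 sh-PIP4K2B cells, with the 3 etoposide arrays on the left and the 3 differentiated arrays on the right of each panel; lines show the mean and its SD, and each panel has its own scale that does not start at 0. The genes shown were picked from those past the threshold, and their arrays do not overlap between the groups. The third etoposide array lies lowest of its group for Igf1r (9.34) and Adamts1 (9.45).

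Of 47 measured targets of p53 21 (44.7%) were higher and 2 lower, against 3.52% and 4.81% of all genes. The other 24 did not pass the threshold, and the median change of the list was 0.41. The mean signal over the list lay between 10.16 and 10.20 on the etoposide arrays against 9.72 and 9.73 on the differentiated arrays. Leaving out single arrays gave between 19 and 21 higher genes. The largest rise was in Pidd1, which encodes a death-domain protein that activates caspase-2, with signals of 9.21, 9.32 and 9.14 after etoposide against 7.42, 7.66 and 7.54 after differentiation (change 1.68, SE 0.07, adjusted p = 9.28e-12). Sesn2, a stress sensor that restrains mTORC1, had 11.56, 11.45 and 11.17 after etoposide against 9.79, 9.74 and 9.73 after differentiation (change 1.64, SE 0.09, adjusted p = 3.9e-10). In both genes the lowest etoposide array lay above the highest differentiated array. The xylulose reductase Dcxr (1.62), the phosphatase Ptprv (1.57), the antiproliferative gene Btg2 (1.38) and the autophagy regulator Trp53inp1 (1.16) followed. Btg2 had 10.59, 10.62 and 10.50 after etoposide against 9.21, 9.25 and 9.10 after differentiation. Mdm2, the ubiquitin ligase that degrades p53, was chosen after its values had been seen and had 12.49, 12.41 and 12.60 after etoposide against 11.65, 11.57 and 11.62 after differentiation (change 0.88, SE 0.07, adjusted p = 2.03e-08). Cyclin G1 (Ccng1) had 13.48, 13.55 and 13.63 after etoposide against 13.01, 13.01 and 13.03 after differentiation, a smaller change of 0.54 with separate arrays. Among the lower members Sesn1, a relative of Sesn2, had 10.91, 11.01 and 11.10 after etoposide against 11.83, 11.84 and 11.87 after differentiation (change -0.84). The growth arrest gene Gadd45a had 9.32, 9.57 and 9.32 after etoposide against 10.13, 10.14 and 10.20 after differentiation (change -0.75), again with no overlap. The gene for p21 was not analysed here.

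Promoters of p53 targets were searched for the p53 half-site, the 10-base degenerate motif that p53 binds in pairs, in the window from 250 bases before to 50 bases after the start site on both strands. A window was available for 19 of the 21 higher members, and 7 of these held a match (Aen, Ccng1, Ckap2, Ei24, Gtse1, Mdm2 and Polk), against 8.58% of all genes with a window. Both lower members, Sesn1 and Gadd45a, held one as well. Outside the p53 list, 2 of the 6 lower genes of cholesterol synthesis with a window, Hmgcs1 and Sc5d, also held a match. Over all changed genes a match was present in 10.3% of 719 promoters of higher genes, 7.38% of 921 promoters of lower genes and 7.37% of all 19116 promoters (95% Wilson intervals 8.28 to 12.7, 5.87 to 9.25 and 7.0 to 7.74, which cover counting error only). The windows of Mdm2 and Ccng1 are shown because these genes rose and carry a match, which is in capitals. They are RefSeq sequences of build GRCm38.p6, written 5′ to 3′ on the minus strand, at chr10:117710709-117711008 for Mdm2 and chr11:40755237-40755536 for Ccng1. The match starts at position -186 from the start site in Mdm2 and at -185 in Ccng1. A match is a description of the letters and not evidence of binding.
Mdm2: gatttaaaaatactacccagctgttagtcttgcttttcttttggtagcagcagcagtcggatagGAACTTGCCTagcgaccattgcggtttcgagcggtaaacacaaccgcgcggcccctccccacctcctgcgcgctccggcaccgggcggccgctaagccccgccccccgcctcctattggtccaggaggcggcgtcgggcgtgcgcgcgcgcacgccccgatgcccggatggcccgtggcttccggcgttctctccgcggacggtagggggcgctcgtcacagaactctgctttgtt
Ccng1: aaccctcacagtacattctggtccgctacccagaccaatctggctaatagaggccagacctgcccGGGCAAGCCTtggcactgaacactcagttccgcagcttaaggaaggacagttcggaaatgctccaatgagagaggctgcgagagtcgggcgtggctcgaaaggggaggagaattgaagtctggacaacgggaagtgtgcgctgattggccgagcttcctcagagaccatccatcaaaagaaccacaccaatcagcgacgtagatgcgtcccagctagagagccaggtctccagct

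Antioxidant genes controlled by NRF2 included 6 higher (23.1%, against 3.52% of all genes) and 0 lower of 26 measured (median change 0.25). Nqo1, a quinone reductase, was the largest: its signals were 11.13, 11.28 and 11.63 after etoposide against 9.09, 9.33 and 9.32 after differentiation (change 2.11, SE 0.13, adjusted p = 1.18e-09). The other 5 rose less. Heme oxygenase Hmox1 changed by 0.66, the cystine transporter Slc7a11 by 0.60, the glutathione synthesis subunits Gclm and Gclc by 0.59 and 0.54, and transketolase Tkt by 0.49, a call that was lost without 1 array. In the list of unfolded protein and amino acid stress 7 of 35 genes were higher (20%) and 1 lower (2.86%), with a median change of 0.14. The higher members were mostly enzymes that make or import amino acids: cystathionine lyase Cth (1.37), asparagine synthetase Asns (0.68), the serine synthesis enzymes Phgdh (0.66) and Psat1 (0.61), and the folate enzyme Aldh1l2 (0.62), with Slc7a11 and Sesn2 shared with the lists above. Asns had 12.98, 12.99 and 12.99 after etoposide against 12.28, 12.33 and 12.30 after differentiation. The endoplasmic reticulum chaperone Hspa5 had 13.13, 13.12 and 13.24 after etoposide against 13.10, 13.12 and 13.09 after differentiation (change 0.06, adjusted p = 0.555), and Ddit3 changed by -0.07 (adjusted p = 0.559).

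Among 36 immediate early and stress factors 4 (11.1%) were higher and 4 (11.1%) lower, against 3.52% and 4.81% of all genes. Higher were Fosl1 (0.80), Atf3 (0.77) and Klf4 (0.56), which encode transcription factors, and the phosphatase Dusp5 (0.49, lost without 1 array). Lower were the growth factor-induced transcription factor Myc (-0.94), the matrix-bound signalling proteins Ccn2 (-0.82) and Ccn1 (-0.50, lost without 1 array), and the phosphatase Dusp1 (-0.65). Myc had signals of 9.78, 10.12 and 9.93 after etoposide against 11.02, 10.87 and 10.76 after differentiation, with no overlap.

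Of 19 measured genes of cholesterol synthesis 9 (47.4%, against 4.81% of all genes) were lower and 0 higher, and the other 10 did not pass the threshold. The median change of the list was -0.47. The mean signal over the list lay between 10.32 and 10.39 on the etoposide arrays against 10.78 and 10.80 on the differentiated arrays, and leaving out single arrays gave between 8 and 10 lower genes. Hmgcs1, which makes the HMG-CoA that enters the pathway, had signals of 10.67, 10.60 and 10.61 after etoposide against 11.53, 11.58 and 11.55 after differentiation (change -0.92, SE 0.07, adjusted p = 5.79e-09). Idi1, which isomerises the isoprenoid unit, had 9.18, 9.64 and 9.96 after etoposide against 10.54, 10.59 and 10.61 after differentiation (change -0.98, adjusted p = 9.4e-05). Neither gene overlapped between the groups, although Idi1 varied widely among the etoposide arrays. Insig1, a sterol-regulated brake on the pathway, had 10.58, 10.81 and 10.65 after etoposide against 11.60, 11.62 and 11.58 after differentiation (change -0.92). Msmo1 (-0.89), Sqle (-0.72), Fdft1 (-0.62), Lss (-0.62) and Sc5d (-0.50), which encode later enzymes of the pathway, and the sterol carrier Stard4 (-0.49) made up the 9.

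The promoter of Hmgcs1 is shown because it held the 1 match to TCACNCCAC, a sterol response element sequence bound by SREBP proteins, among the 6 lower cholesterol genes with a window; the motif, searched on both strands, was found in 1.39% of all genes. CCAAT, on either strand, was found in 6 of the 6, against 41.7% of all genes. Among p53 targets with a window it was found in 13 of 19 higher and 2 of 2 lower genes. The window lies at chr13:119690101-119690400 on the plus strand of GRCm38.p6 (RefSeq) and the match, in capitals, starts at position -137 from the start site.
Hmgcs1: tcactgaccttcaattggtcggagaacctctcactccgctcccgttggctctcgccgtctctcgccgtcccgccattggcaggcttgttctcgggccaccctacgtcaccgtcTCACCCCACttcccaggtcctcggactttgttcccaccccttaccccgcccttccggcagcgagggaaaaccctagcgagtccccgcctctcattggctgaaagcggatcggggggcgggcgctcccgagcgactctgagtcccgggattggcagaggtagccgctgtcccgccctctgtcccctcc

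The insulin-like growth factor axis promotes both growth and differentiation of myoblasts. Of its 18 measured genes 8 (44.4%) were lower and 1 (5.56%) higher, against 4.81% and 3.52% of all genes. The median change of the list was -0.09. Leaving out any single array gave 8 lower genes each time. Both ligands fell: Igf2 had signals of 7.97, 7.68 and 7.48 after etoposide against 8.96, 8.78 and 8.90 after differentiation (change -1.17, adjusted p = 1.71e-07). Igf1 had 7.56, 7.61 and 7.58 after etoposide against 8.56, 8.42 and 8.5 after differentiation (change -0.91). All 3 receptors fell as well. Igf1r, the signalling receptor, had 10.14, 10.07 and 9.34 after etoposide against 11.37, 11.34 and 11.36 after differentiation (change -1.51, SE 0.21, adjusted p = 2.62e-05). Igf2r, which clears IGF2, had 9.30, 9.18 and 8.58 after etoposide against 10.47, 10.35 and 10.32 after differentiation (change -1.36). The insulin receptor Insr had 9.42, 9.37 and 8.88 after etoposide against 10.33, 10.34 and 10.26 after differentiation (change -1.09). In each receptor the third etoposide array was the lowest and the groups did not overlap. The adaptors Irs1 (-0.95) and Irs2 (-0.88) and the binding protein Igfbp5 (-0.76) were lower. The binding protein Igfbp2 moved the other way, with 11.14, 11.20 and 11.05 after etoposide against 9.90, 9.87 and 9.81 after differentiation (change 1.27, SE 0.07, adjusted p = 9.45e-11).

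**Figure D2:**
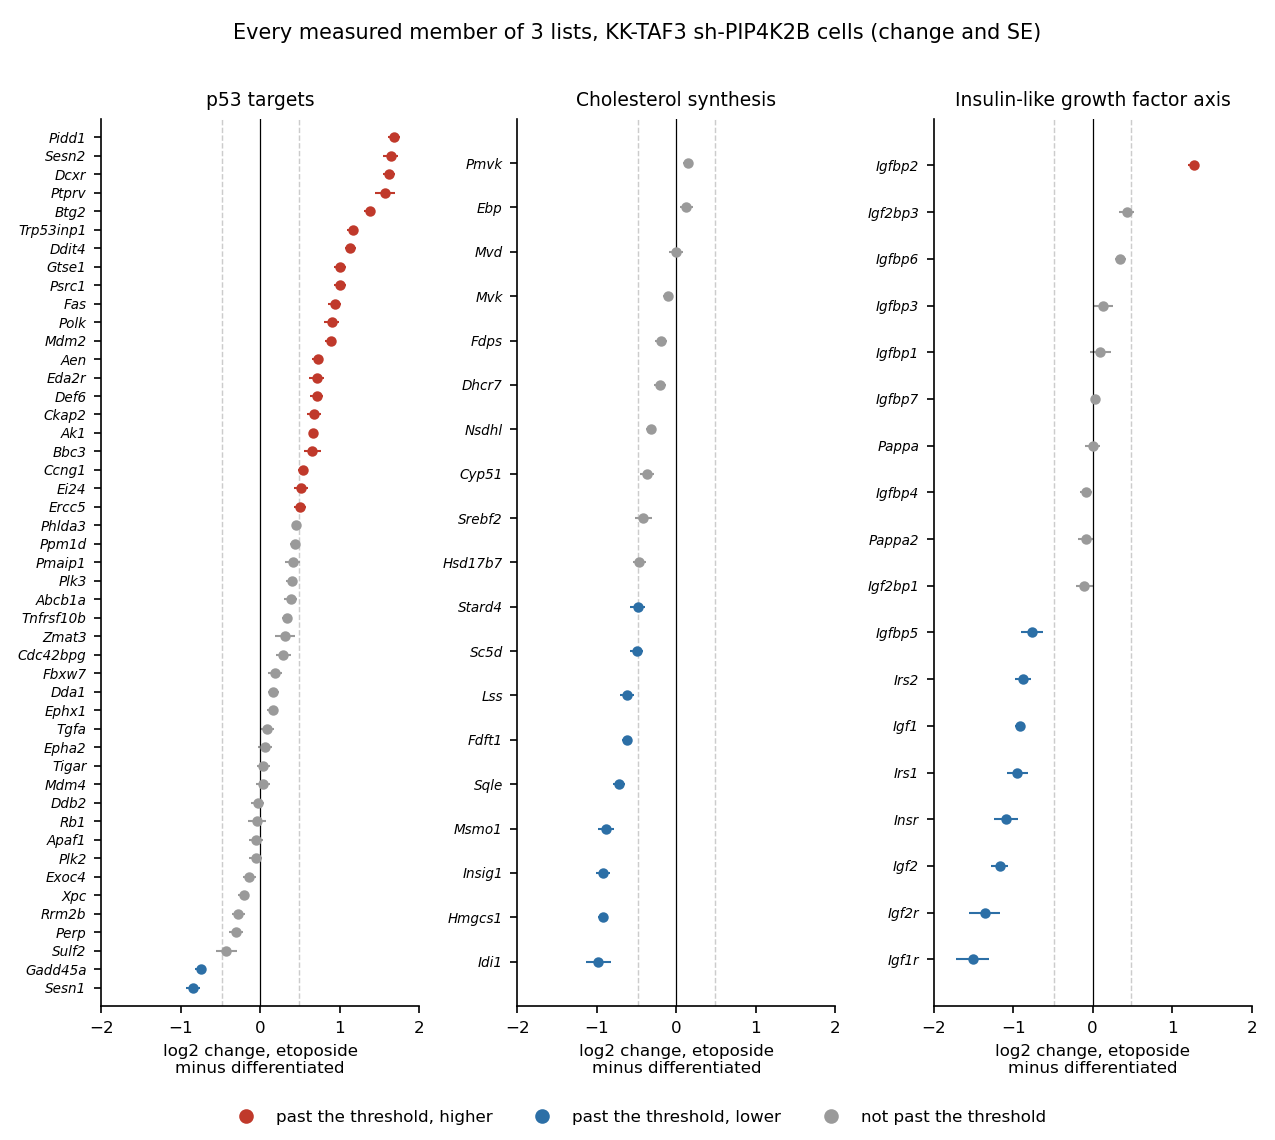
Log2 change (etoposide minus differentiation, with its standard error) of every measured member of the p53 target list (47 genes), the cholesterol synthesis list (19) and the insulin-like growth factor axis (18) in KK-TAF3 sh-PIP4K2B cells; dashed lines mark 1.4-fold. p53 targets lie mostly right of 0 up to Pidd1 (1.68), and cholesterol genes mostly left of 0 down to Idi1 (-0.98). In the growth factor list 7 genes lie right of 0 and 11 left, and Igfbp2 (1.27) alone passed the threshold on the right.

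Other signalling lists held fewer changes. Of 33 ligands and antagonists of the Wnt, BMP and TGF-beta families 4 (12.1%) were lower and 1 (3.03%) higher, against 4.81% and 3.52% of all genes. Inhba, the activin A subunit, had signals of 10.37, 10.38 and 10.31 after etoposide against 12.01, 12.03 and 12.06 after differentiation (change -1.68, adjusted p = 5.01e-11). Bmp4 changed by -1.13, Bmp1 by -0.61 and Tgfb2 by -0.54, whereas Tgfb1 changed by 0.49, and both TGF-beta calls were lost without 1 array. In the list of quiescent reserve cells and Notch 6 of 28 genes were lower (21.4%) and 2 higher (7.14%). The Notch ligands Dll1 (-1.38) and Jag1 (-0.53), the co-receptor Tgfbr3 (-1.58), Dtx4 (-1.08), Gas1 (-0.68) and Nfix (-0.52) were lower, and the receptor Notch1 (1.02) and the Notch target Hey1 (0.90) were higher. Notch1 had 10.48, 10.26 and 9.68 after etoposide against 9.15, 9.13 and 9.08 after differentiation, so the groups stayed apart despite the spread among the etoposide arrays. The calls of Jag1 and Nfix were lost without 1 array.

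Genes of the extracellular matrix were mostly lower where they changed. Of 42 collagens and matrix genes 12 (28.6%) were lower and 3 (7.14%) higher, against 4.81% and 3.52% of all genes. The median change was -0.30, and between 11 and 16 were lower when single arrays were left out. The basement membrane protein nidogen Nid2 had 10.76, 10.80 and 10.19 after etoposide against 12.65, 12.63 and 12.62 after differentiation (change -2.05, adjusted p = 3.84e-09). The collagen VI genes Col6a1 (-1.33) and Col6a2 (-1.32), periostin (Postn, -1.12), the collagen I gene Col1a1 (-1.06) and Emilin1 (-0.87) followed. Col1a1 had 11.58, 11.35 and 10.79 after etoposide against 12.30, 12.28 and 12.31 after differentiation, with the third etoposide array again the lowest. Tenascin C (Tnc) was higher, with 12.63, 12.49 and 12.21 after etoposide against 11.22, 11.13 and 11.12 after differentiation (change 1.29), as were the basement membrane collagen Col18a1 (0.95) and Fbln1 (0.69). Of 25 proteoglycans 7 (28.0%) were lower (4 with the array median as a covariate) and 1 (4.0%) higher. The small leucine-rich proteoglycan lumican (Lum) had 5.51, 5.35 and 5.65 after etoposide against 8.0, 7.93 and 7.81 after differentiation (change -2.41). Decorin (Dcn), which binds collagen and TGF-beta, had 11.62, 11.73 and 11.78 after etoposide against 13.42, 13.51 and 13.53 after differentiation (change -1.77, SE 0.07, adjusted p = 2.7e-12). Neither overlapped between the groups. Prelp (-1.09) and Gpc6 (-0.69) were lower too, Hspg2 (-0.94) and Aspn (-0.61) lost their calls without 1 array, and versican (Vcan) was higher (1.17).

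Secreted inflammatory genes included 7 lower (20%) and 3 higher (8.57%) of 35 measured, against 4.81% and 3.52% of all genes. The collagenase Mmp13 (-2.06) and the protease Mmp3 (-1.06), the chemokines Cxcl12 (-1.16), Ccl7 (-1.15) and Ccl2 (-1.11) and the adhesion receptor Vcam1 (-1.13) were the largest falls, and the alarmin Il33 (0.91), the prostaglandin synthase Ptges (0.79) and Ptgs2 (0.49, lost without 1 array) rose. Ccl2 had 8.76, 8.99 and 9.18 after etoposide against 10.13, 10.13 and 10.00 after differentiation. Il6, Il1a and Il1b did not pass the threshold. Of 28 interferon response genes 8 (28.6%) were lower and 2 (7.14%) higher (median -0.20). Ifit3 changed most (-1.18) but with a standard error of 0.42 and an adjusted p of 0.0485, and its call was lost without 1 array. Oasl2 (-0.83), Ddx58 (-0.72), Zbp1 (-0.63), Ifit2 (-0.62) and Stat2 (-0.61) were lower, and Tap1 (0.62) and Ifi35 (0.53, lost without 1 array) were higher. With the array median as a covariate the interferon response had 5 lower genes.

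**Figure D3:**
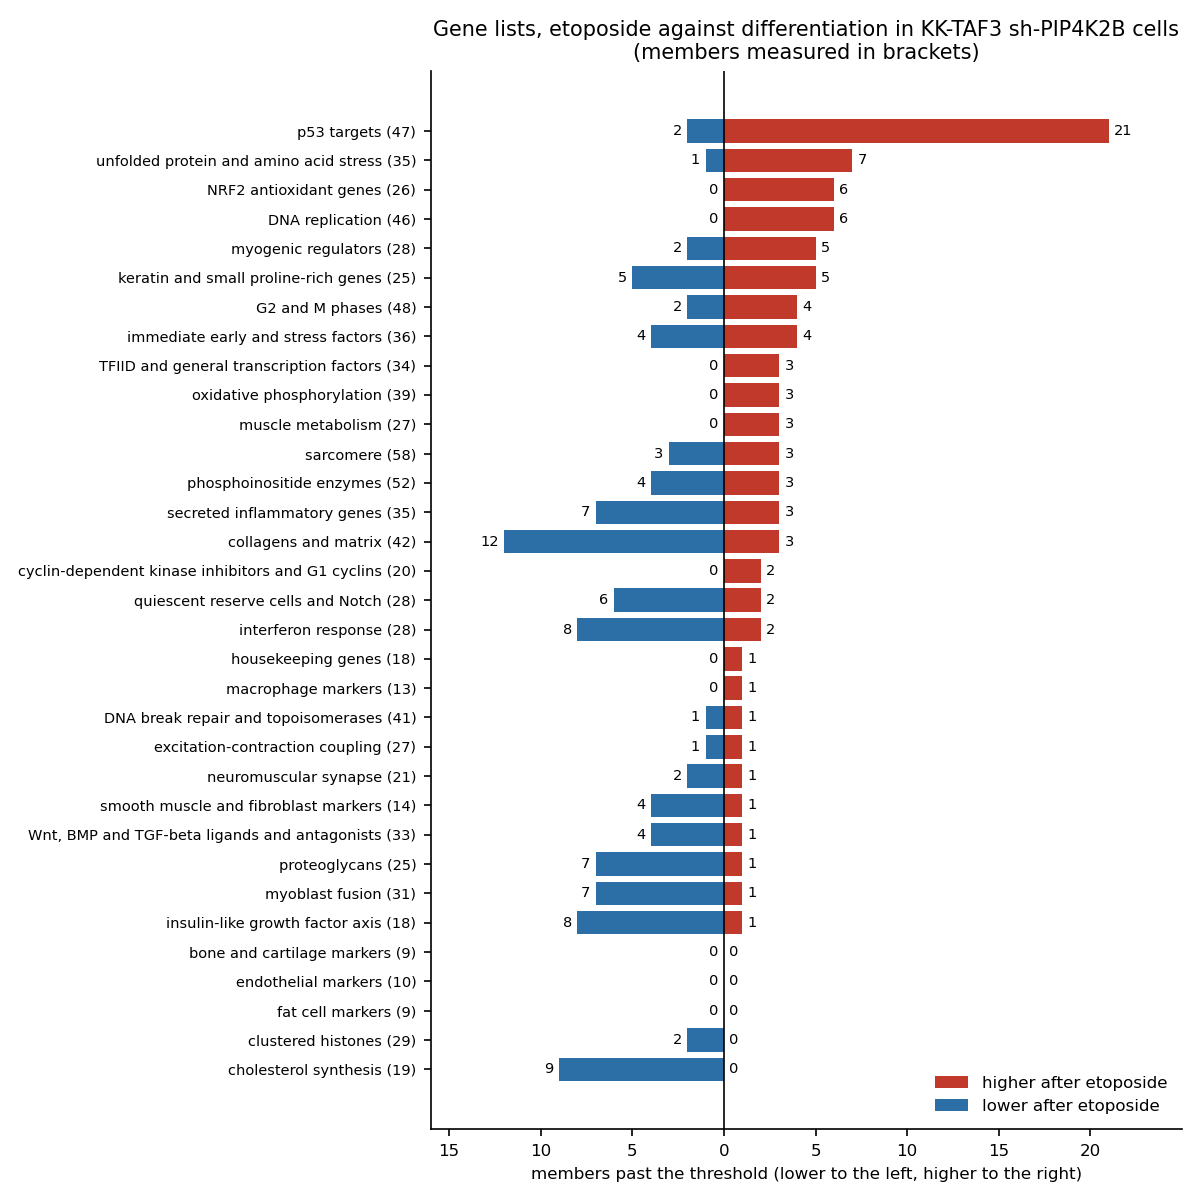
Number of measured members of each gene list that passed the threshold in KK-TAF3 sh-PIP4K2B cells, higher after etoposide to the right and lower to the left of 0. The p53 targets stand out with 21 higher genes, and the collagens and matrix genes hold the most lower genes with 12.

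Of 58 sarcomere genes 3 (5.17%) were higher and 3 lower, against 3.52% and 4.81% of all genes, with 5 higher without the third differentiated array. The fast skeletal troponin Tnnt3 had signals of 9.21, 9.29 and 9.21 after etoposide against 10.39, 10.33 and 10.45 after differentiation (change -1.15, adjusted p = 8.91e-10). The M-band protein Myom2 (-1.19) and the fast myosin light chain Mylpf (-0.57) were lower, while cardiac troponin Tnnt2 (0.67), Pdlim3 (0.70) and Xirp1 (0.50, lost without 1 array) were higher. Of 27 genes of excitation-contraction coupling 1 (3.7%) was lower and 1 (3.7%) higher. The lower gene was Trdn, which anchors calsequestrin to the calcium release channel. It had 9.17, 9.27 and 9.19 after etoposide against 11.24, 11.09 and 11.24 after differentiation (change -1.98, adjusted p = 1.48e-10). The calcium channel subunit Cacng1 was higher (0.66). Of 21 genes of the neuromuscular synapse 2 (9.52%) were lower and 1 (4.76%) higher. Lrp4, the agrin receptor, was lower (9.80, 9.67 and 9.12 after etoposide against 11.47, 11.24 and 11.32 after differentiation, change -1.82). Dystroglycan Dag1 (-0.65) was lower too, and Sntb1 was higher (0.54). The other 18 of 21 genes of the neuromuscular synapse did not pass the threshold, but 5 were lower without the first etoposide array, 4 without the second and 5 with median centring, and 3 were higher without the third.

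Myogenic regulators included 5 higher (17.9%) and 2 lower (7.14%) of 28, against 3.52% and 4.81% of all genes. Besides Id2 and Id3 these were Hey1 (0.90), the TEAD cofactor Vgll2 (0.69) and Myf5 (0.53, lost without 1 array) on the higher side, and Zeb1 (-0.66) and Six4 (-0.55) on the lower side. Myod1, the master regulator of myoblasts, had 8.01, 7.81 and 7.99 after etoposide against 8.33, 8.45 and 8.29 after differentiation, a change of -0.42 below the 1.4-fold limit although the arrays did not overlap. Of 31 fusion genes 7 (22.6%) were lower and 1 (3.23%) higher. The lower ones were the transglutaminase Tgm2 (9.63, 9.59 and 9.23 after etoposide against 11.42, 11.37 and 11.32 after differentiation, change -1.89), the metalloprotease Adam12 (-0.72), Kirrel (-0.68), the laminin receptors Itga7 (-0.61) and Itga3 (-0.58), N-cadherin (Cdh2, -0.56) and Dock1 (-0.53), and the count was 4 without the third etoposide array. The junctional adhesion molecule Jam2 was higher (1.15). Mymk, the muscle-specific fusion protein myomaker, had 8.02, 7.65 and 7.70 after etoposide against 8.14, 8.10 and 8.06 after differentiation (change -0.31, adjusted p = 0.039), below the 1.4-fold limit. Of 27 muscle metabolism genes 3 (11.1%) were higher and 0 lower: the cytochrome oxidase subunit Cox7a1 (1.10), brain creatine kinase Ckb (1.04) and lactate dehydrogenase Ldhb (0.99).

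Of 48 genes active in G2 and M phases 4 (8.33%, against 3.52% of all genes) were higher (Ccnf 0.84, Cdc25b 0.77, Ckap2 0.68, Spc25 0.66) and 2 lower, the large mitotic proteins Cenpf (-0.77) and Aspm (-0.72). Cyclin A2 (Ccna2) had 11.99, 11.97 and 12.07 after etoposide against 12.11, 12.12 and 12.08 after differentiation (change -0.09, adjusted p = 0.343). Of 46 DNA replication genes 6 (13%) were higher and 0 lower (median 0.16): cyclin E1 (Ccne1, 0.65), the licensing factor Cdt1 (0.58), the ribonucleotide reductase subunit Rrm2 (0.56), Orc1 (0.54), the polymerase subunit Pole2 (0.52) and Rfc4 (0.52). The last 3 lost their calls without the third etoposide array. Ccne1 had 10.09, 10.34 and 10.33 after etoposide against 9.58, 9.61 and 9.63 after differentiation. Of 29 clustered histone genes 2 (6.9%, against 4.81% of all genes) were lower and 0 higher, and of 20 CDK inhibitors and G1 cyclins 2 (10%) were higher and 0 lower. In the list of DNA break repair and topoisomerases, which holds the targets of etoposide, Top2b was lower (10.33, 10.17 and 10.22 after etoposide against 10.74, 10.78 and 10.76 after differentiation, change -0.52) and the nuclease gene Eme1 higher (0.54), both calls lost without 1 array, and 39 of 41 did not pass. Top2a had 11.06, 11.07 and 11.15 after etoposide against 10.92, 11.03 and 11.09 after differentiation (change 0.08, adjusted p = 0.569).

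Of 52 phosphoinositide enzymes 4 (7.69%) were lower and 3 (5.77%) higher, against 4.81% and 3.52% of all genes. These counts were unstable: 7 were lower and 1 higher without the second etoposide array, and 1 was higher without the first. Median centring gave 8 lower and 1 higher. Lower were the phospholipase Plcb4 (9.85, 9.89 and 9.60 after etoposide against 10.83, 10.77 and 10.83 after differentiation, change -1.04), the phosphatase Mtmr1 (-0.76) and the PI 3-kinase subunits Pik3r1 (-0.69) and Pik3ca (-0.61). Higher were the PI 3-kinase subunit Pik3r3 (0.62) and the phospholipases Plcd1 (0.52) and Plcg2 (0.50), and both phospholipases lost their calls without 1 array. Pip4k2a, a paralogue of the depleted kinase, had 11.21, 11.23 and 11.25 after etoposide against 11.69, 11.71 and 11.68 after differentiation (change -0.46, adjusted p = 6.65e-05), which is separate but just under 1.4-fold. Of 34 genes of TFIID and the general transcription factors 3 (8.82%) were higher and 0 lower. The higher genes were Taf9b (0.58), the TFIIH subunit Gtf2h4 (0.54) and Gtf2f1 (0.49, lost without 1 array), with 1 higher under median centring. Oxidative phosphorylation genes included 3 higher (7.69%) and 0 lower of 39, with 7 higher without the first etoposide array and 6 with quantile normalization again. Of the 39 genes 38 lay above 0, and the median change was 0.30.

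Markers of macrophages and of fat, endothelial, bone and cartilage cells had low or middle mean signals, whereas smooth muscle and fibroblast markers had higher ones. Of 13 macrophage markers 1 (7.69%, against 3.52% of all genes) was higher, Cd68 (0.60). The mean signal of the 13 was between 6.71 and 6.77 after etoposide and between 6.56 and 6.71 after differentiation. None of 9 fat cell, 10 endothelial and 9 bone and cartilage markers passed the threshold. Of 14 smooth muscle and fibroblast markers 4 (28.6%) were lower, Mylk (-1.46), Col1a1 (-1.06), Pdgfrb (-0.94) and Pdpn (-0.68), and Cnn1 was higher (0.61). Their mean signal was between 9.58 and 9.74 after etoposide against 9.93 and 9.99 after differentiation, and their part in the matrix changes was not tested. In these bulk samples fewer cells of a type and less RNA per cell cannot be told apart. Of 25 keratin and small proline-rich genes 5 were higher and 5 lower (20% each, against 3.52% and 4.81% of all genes). Without the second etoposide array 3 were higher. The lower ones were small proline-rich genes of the epidermal differentiation complex, with Sprr1a at 12.08, 12.26 and 12.20 after etoposide against 13.77, 13.83 and 13.76 after differentiation (change -1.61), followed by Sprr2j-ps (-1.37), Sprr2k (-1.36), Sprr3 (-1.21) and Sprr1b (-0.86). Members of this family are similar in sequence, so their probes may share signal. Keratins Krt19 (0.97) and Krt14 (0.92), Sprr2f (0.59) and the plakophilins Pkp1 (0.53) and Pkp2 (0.51) were higher, the plakophilins with calls lost without 1 array. Of 18 housekeeping genes 1 (5.56%) was higher, Hprt, with 11.75, 11.84 and 12.34 after etoposide against 11.27, 11.25 and 11.28 after differentiation (change 0.71).

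The same contrast was set beside KK-TAF3 cells in both WT-TAF3 genotypes, which share no arrays with them. After etoposide 726 genes (3.64%) were higher and 1257 (6.3%) lower in PIP4K2B-depleted WT-TAF3 cells, and in WT-TAF3 cells without depletion 940 (4.71%) and 582 (2.92%) in the same order. Of the 702 genes higher in KK-TAF3 cells 492 were also higher in depleted WT-TAF3 cells (70.1% of the KK-TAF3 genes and 67.8% of the WT-TAF3 genes) and 517 in WT-TAF3 cells without depletion (73.6% and 55.0%). Of the 959 lower genes 798 were also lower in depleted WT-TAF3 cells (83.2% and 63.5%) and 464 in WT-TAF3 cells without depletion (48.4% and 79.7%). A missing call in one genotype is not a difference between genotypes, which was tested directly as the change in KK-TAF3 cells minus the change in the other genotype. Against depleted WT-TAF3 cells 27 genes had a higher value in KK-TAF3 cells (0.135%) and 3 a lower one (0.015%). Against WT-TAF3 cells without depletion, where TAF3 and PIP4K2B both differ, 78 genes (0.391%) had a higher and 65 (0.326%) a lower value. The median standard error was 0.132 for such a difference and 0.0935 for a change. Both tests use the same KK-TAF3 arrays.

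Several muscle genes were among the differences from depleted WT-TAF3 cells, beside Sprr2b, whose difference of 1.43 lay between those of Mymk and Casq2. Mymk fell by 1.81 there but changed by -0.31 in KK-TAF3 cells, a difference of 1.5 (SE 0.15, adjusted p = 8.63e-05). Its mean was 7.79 after etoposide and 8.10 after differentiation in KK-TAF3 cells, and 7.86 after etoposide and 9.67 after differentiation in depleted WT-TAF3 cells. The etoposide levels were thus close and the differentiated levels apart. The calsequestrin gene Casq2, whose product binds calcium, averaged 6.74 after etoposide and 6.52 after differentiation in KK-TAF3 cells, and 6.59 after etoposide and 7.74 after differentiation in depleted WT-TAF3 cells (difference 1.37, adjusted p = 1.74e-05). Myog averaged 6.77 after etoposide and 6.93 after differentiation in KK-TAF3 cells, and 6.93 after etoposide and 7.95 after differentiation in depleted WT-TAF3 cells (difference 0.86, adjusted p = 0.00521). For both genes, as for Mymk, the mean was higher in differentiated depleted WT-TAF3 cells than in the other 3 groups of these 2 genotypes. Myh3 (difference 0.90, adjusted p = 0.00181) and troponin C (Tnnc1, difference 1.14, adjusted p = 0.00108) had means of 6.36 and 8.68 in differentiated KK-TAF3 cells and of 7.29 and 9.80 in differentiated depleted WT-TAF3 cells. Tnnt2 rose in KK-TAF3 cells, to 10.71 after etoposide against 10.04 after differentiation, and had 10.70 after etoposide and 10.97 after differentiation in depleted WT-TAF3 cells (difference 0.94, adjusted p = 0.00128). Of the 58 sarcomere genes 6 had such a difference and all 6 were positive: Actc1, Myh3, Myl4, Tnnc1, Tnnt2 and Pdlim3. Pdlim3 lost its call without 1 array, and such losses were not summarised for Myh3 and Myl4. The neurofilament Nefl changed by 1.45 in KK-TAF3 cells and by 0.32 in depleted WT-TAF3 cells (difference 1.13). Decorin (Dcn) fell in both genotypes, to 11.71 after etoposide against 13.49 after differentiation in KK-TAF3 cells and to 10.59 after etoposide against 13.12 after differentiation in depleted WT-TAF3 cells (difference 0.76). No member of the p53 target, cholesterol or G2 and M lists differed past the threshold from depleted WT-TAF3 cells. The median difference was 0.05 for p53 targets, 0.08 for cholesterol genes and 0.30 for G2 and M genes. For the G2 and M list the median change was -0.01 in KK-TAF3 cells and -0.32 in depleted WT-TAF3 cells.

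Against WT-TAF3 cells without depletion the cholesterol and mitotic lists differed. In those cells 0 of 19 cholesterol genes changed, and 8 of the 19 had a lower value in KK-TAF3 cells: Hmgcs1, Fdft1, Sqle, Lss, Cyp51, Msmo1, Hsd17b7 and Insig1. The calls of Fdft1, Insig1, Msmo1 and Sqle were lost without 1 array and that of Hmgcs1 was not. Such losses were not summarised for the other 3. For Hmgcs1 the means were 10.63 after etoposide and 11.55 after differentiation in KK-TAF3 cells against 10.89 after etoposide and 11.15 after differentiation in WT-TAF3 cells without depletion (difference -0.66, adjusted p = 0.00161). Depleted WT-TAF3 cells had 11 lower cholesterol genes, close to the 9 in KK-TAF3 cells. For the G2 and M phases 22 of 48 genes were lower and 1 higher in WT-TAF3 cells without depletion, 12 lower and 2 higher in depleted WT-TAF3 cells, and 2 lower and 4 higher in KK-TAF3 cells. The difference from WT-TAF3 cells without depletion was positive past the threshold for 14 of the 48, among them Ccna2 (0.67), Kif20a (0.70), Aurkb (0.67) and Plk1 (0.65). Loss of the call without 1 array was not summarised for Kif20a, Aurkb and Plk1. The p53 targets were alike in count, with 21 higher in KK-TAF3 cells, 17 in depleted WT-TAF3 cells and 19 in WT-TAF3 cells without depletion, and 1 of the 47, Pidd1, had a difference past the threshold (0.49, lost without 1 array). Carbonic anhydrase Car9 and adenylate kinase Ak4, which respond to low oxygen in many cells, had the values 0.55 and -0.41 in KK-TAF3 cells against 1.96 and 0.61 in WT-TAF3 cells without depletion (differences -1.41 and -1.02). Igfbp4 fell there (-1.05) and had -0.08 in KK-TAF3 cells (difference 0.97, adjusted p = 0.000385).

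**Figure D4:**
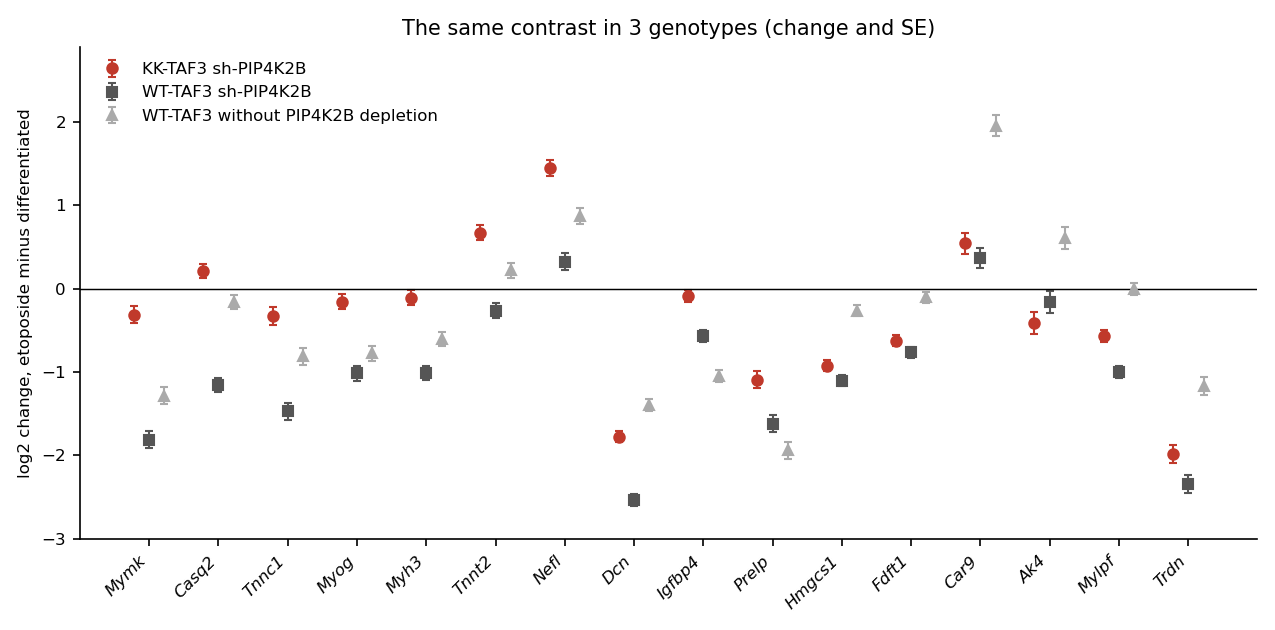
Log2 change (etoposide minus differentiation, with its standard error) of 16 genes in KK-TAF3 sh-PIP4K2B cells, WT-TAF3 sh-PIP4K2B cells and WT-TAF3 cells without PIP4K2B depletion. Mymk lies at -0.31 in KK-TAF3 cells and at -1.81 in depleted WT-TAF3 cells, whereas Hmgcs1 lies at -0.92 in KK-TAF3 cells, -1.10 in depleted WT-TAF3 cells and -0.26 without depletion.

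Genes that fell were longer, at the median, than genes that rose. A genomic length was available for 99.6% of genes, and its median was 13452 bases for the higher genes and 56742 bases for the lower genes, against 17737 bases for all genes. With genes divided into 5 equal groups by length, 1.66, 2.47, 3.2, 5.11 and 11.7% were lower from the shortest to the longest group, and 3.05, 5.06, 4.36, 2.69 and 2.52% were higher. The longest group, of 59508 bases and more, held 464 of the 958 lower genes with a length (48.4%) and 14.2% of the higher ones. The share lower in that group was 14.4% in depleted WT-TAF3 cells and 6.12% in WT-TAF3 cells without depletion. In KK-TAF3 cells the arrays were unequal. Of the genes in the longest group 8.81, 8.86 and 20% lay more than 1.4-fold below the differentiated mean on etoposide arrays 1, 2 and 3, against 2.67, 1.86 and 2.17% in the shortest group. Without the third etoposide array 8.44% of the longest group were lower.

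The lists differed in length. Of the 8 lower genes of the insulin-like growth factor axis 4 belonged to the longest group, against 7 of all 18 members. Of the 7 lower fusion genes 4 did, against 12 of all 31. The median lengths of these lower genes were 68559 and 96185 bases. Of the 9 lower cholesterol genes 0 did, which was fixed by the list, as 0 of its 19 members belong there. Of the 21 higher p53 targets 1 did, against 9 of all 47. The median lengths were 15456 bases for the lower cholesterol genes and 17653 bases for the higher p53 targets. The part of gene length in the falls of the growth factor and fusion genes was not tested.

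**Figure D5:**
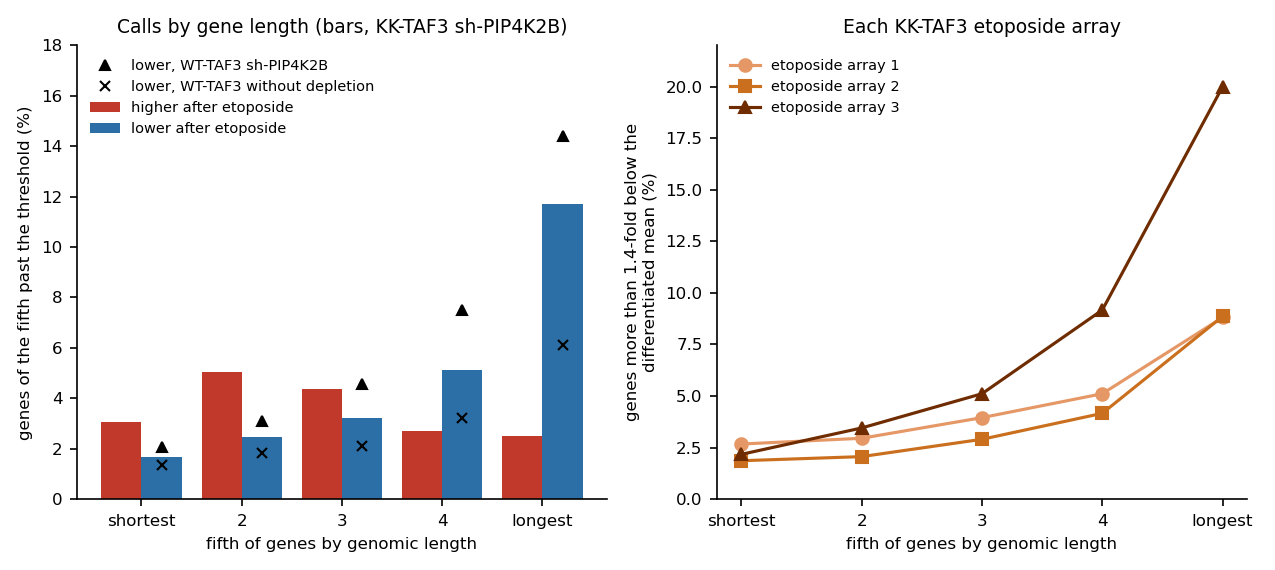
Left, percent of genes higher and lower after etoposide in KK-TAF3 sh-PIP4K2B cells for 5 groups of genes from the shortest to the longest, with markers for the percent lower in the WT-TAF3 genotypes. Right, percent of genes more than 1.4-fold below the differentiated mean on each of the 3 etoposide arrays for the same groups: the third array reaches 20% in the longest group and the other arrays 8.81 and 8.86%.

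Other short promoter motifs were counted in the same windows, with no test. TATAAA was found in 9.6% of promoters of higher genes, 9.12% of those of lower genes and 11.5% of all promoters, and CCAAT in 34.4, 36.0 and 37.4% in that order. TTTGAA, the cell cycle genes homology region, was found in 14.3, 12.9 and 14.8%, and TCACNCCAC in 1.11, 1.09 and 1.18%. All were searched on both strands, and a window was available for 556 higher, 705 lower and 15563 genes in all.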

How the data were processed

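RNA (100 ng per array) of 6 groups of 3 C2C12 samples was hybridised to Affymetrix mouse gene arrays. The authors made the deposited log2 values by RMA in Affymetrix Expression Console (version not given in the sources used here), which corrects background, scales the arrays by quantiles and combines the probes of a transcript cluster, and these values were used as deposited. Quantile scaling assumes like distributions on all arrays, and summaries compress low signals. Of 35556 clusters 21789 have 1 symbol, 1621 several and 12146 are not listed in the annotation used. The paper names a later chip generation than that annotation, so gene names rest on the annotation. For 999 symbols with several clusters the brightest one stood for the gene, for 19938 genes in all. Those with several symbols were left out except in 1 alternative.

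All 18 arrays entered 1 limma 3.58.1 fit of 6 group means (R 4.3.3) with 12 residual and 6.05 prior degrees of freedom. The contrast was etoposide minus differentiation in KK-TAF3 sh-PIP4K2B cells, and differences of that contrast from each WT-TAF3 genotype were tested in the same fit. Labels of the WT-TAF3 arrays without depletion name no control shRNA. The paper calls the arrays biological triplicates, and p-values measure only the spread between them. Same-numbered arrays of both KK-TAF3 groups did not deviate together (r of -0.062, 0.08 and -0.003), so the numbers were not taken as pairs. In simulated data of 19938 genes the contrast recovered 64 of 67 planted changes of 0.75. It recovered 67 of 67 of 1 and 66 of 66 of 1.5, with 7 false calls. The difference from depleted WT-TAF3 cells recovered 54 of 67, 59 of 67 and 66 of 66 in the same order, with 8 false calls. These counts describe the simulated data only, and whether they hold for the real arrays was not tested. The real groups differed in spread: the median SD of a gene was 0.112 after etoposide and 0.0694 after differentiation in KK-TAF3 cells. In depleted WT-TAF3 cells it was 0.137 after etoposide and 0.073 after differentiation. Long genes were also shifted on KK-TAF3 etoposide array 3, as described above.

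The 33 gene lists (971 of 1071 entries measured) and the comparison itself were chosen with earlier results of these data known, and the p53 and sterol motifs were added after the calls had been seen. Named were the shRNA targets and genes the paper names, the 20 largest changes per direction with separate arrays (predicted, clone-named and small RNA genes left out), up to 6 changed members of each list per direction and up to 3 unchanged ones, and the 6 largest differences between genotypes per direction. Genes named beyond this rule were chosen after their values were seen: Mdm2, Myh3 and further members of lists described in full or tested between genotypes. Lengths and promoters are from RefSeq (GRCm38.p6), and 19856 genes matched. Alternatives were other thresholds, fits, priors, scalings and signal filters, every cluster, omission of each array and a replicate block. Tables and figures used Python 3.11.15, pandas 2.3.3, numpy 2.4.6, scipy 1.17.1 and matplotlib 3.10.9.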

Additional observations from a re-analysis of the deposited data

Results flagged for a closer look

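The effect of etoposide relative to differentiation was compared between genotypes with limma, as the log2 change in KK-TAF3 sh-PIP4K2B cells minus that in the other genotype, and the named genes below had a difference past the threshold (adjusted p under 0.05 over all genes and more than 1.4-fold). Both comparisons use the same KK-TAF3 arrays and were counted above, so the values are given here without further tests.

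Relative to WT-TAF3 cells with PIP4K2B depletion the muscle genes were Mymk 1.5, Casq2 1.37, Tnnc1 1.14, Tnnt2 0.94, Myog 0.86, Actc1 0.77 and Pdlim3 0.61, all positive. For Sprr2b the difference was 1.43, although its signal in KK-TAF3 cells was low, at 5.79, 5.77 and 5.35 after etoposide and 5.81, 5.79 and 5.49 after differentiation. Genes with roles in neurons or their adhesion had differences of 1.13 (Nefl), 0.90 (Ncam2) and 0.86 (Nptx1), and the phosphatase Ppef1 had 1.11. Secreted and surface proteins had 0.84 (C1qtnf3), 0.84 (Il33), 0.76 (Dcn) and 0.57 (Cd34). Setbp1 (-0.88), Ptgfr (-0.74) and Ccn5 (-0.55) were negative, and no other gene was. Leaving out 1 array lost the calls of Ccn5, Cd34, Il33, Ncam2, Nptx1, Pdlim3, Ppef1, Ptgfr and Setbp1.

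Relative to WT-TAF3 cells without PIP4K2B depletion positive differences were found in secreted or matrix genes (Dkk3 0.98, Igfbp4 0.97, Prelp 0.85, Lum 0.56), in cell cycle, repair and histone genes (Ccna2 0.67, Eme1 0.61, Ccnb2 0.59, H1f1 0.52), in muscle genes (Mymk 0.97, Actc1 0.66, Myog 0.62) and in Gpr141 (1.38), Ces2g (1.06), Etv1 (1.01), Emb (1.0), Car8 (0.90), Cd34 (0.54), Fxyd5 (0.53), Anxa8 (0.52) and Pidd1 (0.49). Negative differences were found in cholesterol genes (Msmo1 -0.68, Hmgcs1 -0.66, Insig1 -0.54, Fdft1 -0.52, Sqle -0.51), in other muscle and synapse genes (Trdn -0.81, Tgm2 -0.80, Myom2 -0.72, Tnnt3 -0.58, Mylpf -0.57, Chrnd -0.52) and in Car9 (-1.41), Sema3d (-1.19), Ak4 (-1.02), Npr3 (-0.98), Dync1i1 (-0.97), Lix1 (-0.89), Ptgfr (-0.72), Postn (-0.68), Pkp2 (-0.67) and Mest (-0.53). Leaving out 1 array lost 18 of these 41 calls: Anxa8, Car8, Ccnb2, Chrnd, Emb, Eme1, Fdft1, Fxyd5, H1f1, Insig1, Lum, Mest, Msmo1, Myog, Myom2, Pidd1, Pkp2 and Sqle.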

How the results depend on the processing

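None of the 199 named genes past the threshold in KK-TAF3 cells changed direction under the alternatives run; named genes that did not pass it were not held to this. In KK-TAF3 cells 702 higher and 959 lower genes became 2561 and 2506 with no fold limit and 172 and 271 when tested against a change of 1.4-fold, and 1101 transcript clusters were higher when every cluster was used. Leaving out single arrays gave 677 to 866 higher and 790 to 1073 lower genes, and 30 of 199 named calls were lost without some array. With a replicate block the counts were 703 and 962, and those of the differences 29 and 2 from depleted WT-TAF3 cells and 81 and 65 from WT-TAF3 cells without depletion, so the block moved no count by over 1.5 times. The differences were less stable. From depleted WT-TAF3 cells 27 positive and 3 negative differences became 105 and 38 at an unadjusted p, 2 and 0 against 1.4-fold, 15 and 0 with only the arrays compared and 16 and 0 with every cluster, and negative ones numbered 1 above the median signal, 6 with quantile normalization again and 7 with the array median as a covariate. Leaving out single arrays gave 17 to 54 and 0 to 6, with the highest counts without the first etoposide array of depleted WT-TAF3 cells. From WT-TAF3 cells without depletion 78 and 65 became 213 and 161 at an unadjusted p and 0 and 0 against 1.4-fold, negative ones numbered 31 with the array median as a covariate, and leaving out single arrays gave 46 to 79 and 27 to 75. Among genes above the median signal 19.5% of the longest group were lower and 3.27% higher, against 3.77% and 9.28% of the shortest group. Leaving out single arrays gave 8.44 to 13.4% lower in the longest group, 2.29 to 4.25% higher in the shortest group, and 0.541 to 1.27% of promoters of higher genes with TCACNCCAC. With median centring, with the array median as a covariate and with quantile normalization again, p53 targets had 18, 21 and 23 higher genes, cholesterol synthesis had 10, 7 and 7 lower genes and the insulin-like growth factor axis had 8 lower genes each time. The cause of these shifts was not tested. With 3 arrays a group, changes near 1.4-fold in dim genes are the least certain.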
